A study of Mus musculus with 12 samples.

Results

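Splenic B cells labelled Chd4 knockout (KO) were compared with cells labelled wild-type (WT) after 48 hr in culture with 10 µg/ml lipopolysaccharide (LPS), a bacterial product that activates B cells through Toll-like receptor 4, and 25 ng/ml interleukin 4 (IL-4), the T cell cytokine under which B cells switch to IgG1 or IgE. The comparison used 6 of the 12 RNA-seq libraries of the series: WT 48 hr replicates 7, 8 and 9 and KO 48 hr replicates 10, 11 and 12, all mouse cells given both agents for the same time. They are called WT7, WT8, WT9, KO10, KO11 and KO12 below. The other 6 libraries, from unstimulated cells (0 hr, WT1 to WT3 and KO4 to KO6), entered the statistical fit and are set beside the 48 hr values near the end. The labels give no strain, age, Cre line or deleted exons, and do not say whether replicates were separate animals. The p-values therefore rest on how much these samples vary, and that variation may be technical. Each of the 6 libraries held 51.1 M to 53 M estimated counts. Values below are in CPM, the usual measure of a gene's counts relative to the scaled size of its library, always in the order WT7, WT8, WT9 and KO10, KO11, KO12. A gene was called higher or lower where its Benjamini-Hochberg adjusted p by edgeR's quasi-likelihood test, over the 19125 genes tested, was below 0.05. The description is limited to the 16010 tested genes placed on an autosome.

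CHD4 is an ATP-driven chromatin remodeller and the motor subunit of NuRD, the nucleosome remodelling and deacetylase complex, in which it slides nucleosomes beside the histone deacetylases HDAC1 and HDAC2. The complex is known in lymphocytes both for keeping genes of other lineages silent and for acting at active enhancers. Resting B cells given LPS and IL-4 divide, switch their heavy-chain constant region, and in part start toward antibody-secreting plasma cells.

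Chd4 RNA was lower in KO at 48 hr and still present. Chd4 (chromosome 6, 125095981 to 125130591 in mm10) was at 102, 96.1 and 123 CPM in WT and 51.3, 38.8 and 74.7 CPM in KO. Every KO library was below every WT library (log2 fold change -0.96, SE 0.22, 95% interval -1.43 to -0.49, edgeR adjusted p = 0.038). The call ended, at adjusted p = 0.0548 to 0.16, in fits without WT1 or WT3, without any one of WT7, WT8 and WT9, or without KO10 or KO11, and with no filter on low counts (0.0504). The 3 annotated Chd4 transcripts each had lower means in KO, with 76.2 against 39.2, 25.5 against 13.8 and 5.36 against 1.90 CPM. Reads outside the deleted part would still be counted. In the unstimulated libraries, Chd4 was not lower in those labelled KO. It was at 99.4, 68.1 and 92.8 CPM in WT and 100, 70.6 and 92.8 CPM in the libraries labelled KO at 0 hr (log2 fold change 0.02, SE 0.22, adjusted p = 0.99), so total Chd4 RNA did not tell KO from WT there. Because reads outside the deleted part count, these values do not show whether those cells carried the deletion. The 48 hr difference minus the 0 hr one was -0.98 (SE 0.31, adjusted p = 0.35 by edgeR's interaction test). Of 13 other genes in the list of NuRD subunits, 1 was called, Chd5, a relative of Chd4 known from neurons, and 2 without KO12. Of all autosomal genes, 1.61% were called higher, and 3.89% without KO12. The histone-binding subunit gene Rbbp4 stood at 676, 728 and 728 CPM in WT and 775, 763 and 759.6 CPM in KO (log2 fold change 0.11, 95% interval -0.19 to 0.41, adjusted p = 0.8).

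KO12 stood apart from KO10 and KO11. Among the 3 KO libraries it was the nearest to the WT mean in 44.0% of all autosomal genes, in 65.4% of the genes called higher and in 65.2% of those called lower, and it held the most Chd4 RNA of the 3. Without it, 979 autosomal genes were called (5.93% of those then tested), 641 higher (3.89%) and 338 lower (2.05%). List counts without KO12, given below, are to be read beside these shares. Its part in each result was not tested beyond fits that left it out. The 12 B cell marker genes summed to 6726 to 7302 CPM in WT and 6236 to 7461 CPM in KO, and 0 of the 12 were called. The B cell receptor chain gene Cd79a, for example, was at 893, 949.8 and 855 CPM in WT and 789, 887 and 910.2 CPM in KO. Markers of myeloid cells summed to 15.7 to 16.7 CPM in WT and 15.0 to 32.0 CPM in KO, those of NK cells to 2.99 to 3.19 and 2.2 to 5.94 CPM, and those of erythroid cells and platelets to 8.11 to 11.0 and 3.66 to 9.73 CPM. Markers of stromal and endothelial cells summed to 60.6 to 66.3 CPM in WT and 47.9 to 48.4 CPM in KO, of which Pecam1, an adhesion gene that B cells also express, gave nearly all. T cell markers summed to 40.1 to 45.0 CPM in WT and to 115, 115 and 45.9 CPM in KO. Nearly all of that sum was the kinase gene Lck, at 35.3, 35.2 and 39.4 CPM in WT and 109.7, 108 and 41.9 CPM in KO (log2 fold change 1.24, adjusted p = 0.062, and 1.57 with adjusted p = 0.0015 without KO12). Cd3e, of the T cell receptor complex, was at most 0.528 CPM in any of the 6 libraries. None of the markers found in the table was at 0 in all 6 libraries, and their part in the results was not tested. Xist, the RNA of the inactive X chromosome, averaged 78.7 CPM in WT and 0.940 CPM in KO, and Y-linked genes were higher in KO (Ddx3y 21.4 and 117 CPM), so that genotype and the sex of the cells cannot be told apart here. Each WT library held both kinds of RNA at similar levels (Xist 75.4, 83.7 and 77.0 CPM, Ddx3y 21.7, 20.8 and 21.8 CPM). Whether the WT libraries came from a shared pool of male and female cells, rather than from separate animals, was not tested.

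In all, 346 autosomal genes differed between KO and WT at 48 hr (2.16% of 16010), 257 higher (1.61%) and 89 lower (0.556%) in KO. By the mean of all 6 libraries at 48 hr, 47 of the genes called higher and 7 of those called lower were below 1 CPM, as were 5118 of all those tested. At 100 CPM or more were 16 of the higher, 24 of the lower and 2899 of all. The median log2 fold change was 1.88 in the genes called higher and -0.89 in those called lower. The median over all autosomal genes was 0.00. The 3 KO libraries lay outside the range of the 3 WT libraries in 250 of the 257 higher and 89 of the 89 lower genes, and in 21.6% of all autosomal genes. With relative log expression scaling in place of TMM, the median of all genes moved by less than 0.1 and the split of calls became 215 higher and 120 lower, and with a filter of at least 1 CPM in 3 libraries it was 216 and 112. The number of calls fell to between 115 and 129 without any one of WT7, WT8 and WT9 (115, 121 and 129) or KO10 and KO11 (124 and 123), and 83 of the 346 were called in all 12 fits that left out 1 library.

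**Figure D1:**
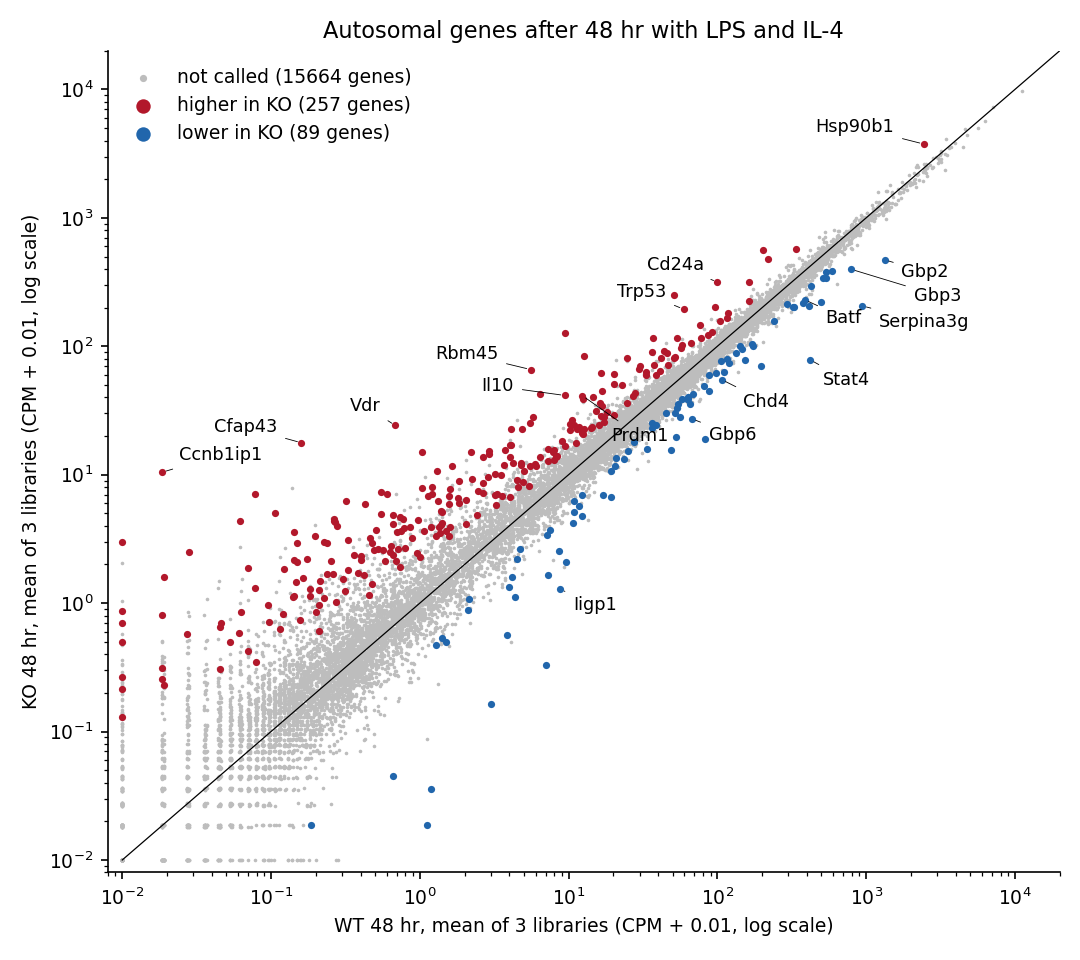
Mean level of each autosomal gene in the 3 WT (x axis) and the 3 KO libraries (y axis) at 48 hr, in CPM plus 0.01 on log axes, where each point is 1 gene and the line marks equal levels. Genes higher in KO (257) lie above the line and genes lower in KO (89) below it.

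The interferon-inducible GTPases were the list with the largest share of members lower in KO. These proteins are made in response to interferon gamma or type I interferon and attack the membranes around intracellular pathogens. Of 17 tested, 7 fell and 0 rose (Gbp2, Gbp2b, Gbp3, Gbp5, Gbp6, Gbp7 and Iigp1), against 0.556% of all autosomal genes called lower, and the list's median log2 fold change was -0.59. The count was 7 without KO12 and 6 to 8 in fits that left out any 1 library. Gbp2, the most abundant of the 7, was at 1327, 1351 and 1323 CPM in WT and 441, 433 and 537 CPM in KO (log2 fold change -1.5, SE 0.13, edgeR adjusted p = 4.2e-05). Gbp3 was at 788, 807 and 780.3 CPM in WT and 388, 388 and 417 CPM in KO (log2 fold change -0.99, SE 0.14, edgeR adjusted p = 0.0023). In both genes the WT libraries lay within a narrow band and all KO libraries lay far below it, KO12 the nearest to WT. Gbp7 was at 417, 417 and 409.7 CPM in WT and 190.5, 160.1 and 267 CPM in KO (log2 fold change -1.01, adjusted p = 0.0043). Gbp6 was at 66.5, 71.8 and 64 CPM in WT and 22.3, 28.4 and 31 CPM in KO (log2 fold change -1.31, adjusted p = 0.004). Iigp1, an immunity-related GTPase, was at 9.73, 7.75 and 8.90 CPM in WT and 1.38, 1.37 and 1.06 CPM in KO (log2 fold change -2.79, adjusted p = 2.6e-05). Gbp5 was at 46.3, 47.1 and 42.9 CPM in WT and 32.4, 29.4 and 28.6 CPM in KO (log2 fold change -0.59, adjusted p = 0.019), the smallest difference of the 7. Its call ended without WT7 or WT8 or KO11 (adjusted p = 0.07 to 0.076). The abundant members Gbp4 and Irgm1 were not called. Gbp4 was at 227, 222 and 212 CPM in WT and 194, 206 and 199.8 CPM in KO (95% interval of the log2 fold change -0.37 to 0.08, adjusted p = 0.61). Irgm1, a regulatory member that keeps the other GTPases off the cell's own membranes, was at 318, 321 and 331 CPM in WT and 349.9, 414 and 344 CPM in KO (-0.08 to 0.47, adjusted p = 0.56). The Gbp genes are neighbouring paralogs, so the division of reads among similar members is uncertain.

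Of the interferon-stimulated genes outside the GTPase families, 1 of 33 tested fell and 0 rose, with a list median of -0.19. Of all autosomal genes, 0.556% were called lower. The 1 called was Irf1, a transcription factor gene induced by interferons, at 155, 139 and 143 CPM in WT and 91.7, 92.8 and 103 CPM in KO (log2 fold change -0.61, SE 0.11, edgeR adjusted p = 0.013). Its groups did not overlap, and its call ended without WT7 or KO10 or KO11 (adjusted p = 0.067 to 0.078). Without KO12, 6 of the 33 were lower, against 2.05% of all autosomal genes in that fit.

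Promoters of the called genes were searched for 7 motifs, among them 2 known from interferon responses, and the shares were set side by side without a test. They were RefSeq's, from 250 bases before to 50 after the start (GRCm38.p6), found for 70 of the 89 lower genes, 194 of the 257 higher genes and 12273 of the 16010 tested. The gamma-activated site (GAS, TTCNNNGAA), the letters bound by STAT dimers, was in 15.7% of the lower, 5.67% of the higher and 7.33% of all promoters (11, 11 and 899). A core of the interferon-stimulated response element (ISRE), GAAA and again GAAA with any 2 letters between, is bound by IRF factors. It was in 12.9%, 2.58% and 3.28% (9, 5 and 402). Both strands were searched. GAS letters read the same on both strands, and the motifs were allowed to overlap. Of the 9 lower genes with the ISRE core, 5 were Gbp genes (Gbp2, Gbp2b, Gbp3, Gbp5 and Gbp7), which share ancestry and so are not separate cases. The same holds for 5 of the 11 lower genes with GAS (Gbp5, Gbp7, Serpina3f, Serpina3g and Serpina3i). The octamer (ATGCAAAT), the letters bound by OCT factors, was in 0% of the lower, 5.15% of the higher and 1.46% of all promoters (0, 10 and 179). AP-1 letters (TGANTCA) were in 10%, 6.70% and 5.80%, the E-box CACGTG in 12.9%, 9.28% and 9.50%, the cyclic AMP response element (CRE, TGACGTCA) in 1.43%, 3.09% and 3.02%, and TATAAA in 10%, 10.3% and 8.21%. The lower genes' promoters also had a median of 53.2% G and C and a CpG ratio (observed over expected) of 0.5, against 59.7% and 0.719 for all. A match describes the letters and shows no binding. Promoters of 4 of the genes called lower are printed here to show where the GAS and ISRE motifs lie, 5′ to 3′ on the gene's strand and all on the plus strand of the genome, with the letters matched by these motifs in capitals. Matches to the other motifs, AP-1 letters in Gbp2 and TATAAA read from the other strand in Gbp3, are left in lower case. Gbp2 (chr3:142620413-142620712) and Gbp3 (chr3:142559794-142560093) have the ISRE core read from the other strand, 59 bases before the start in Gbp2 and as an overlapping pair, 45 and 39 bases before it, in Gbp3. Irf1 (chr11:53769764-53770063) has a GAS 90 bases before its start, and Serpina3g (chr12:104235897-104236196), described below, has one 33 bases before.
Gbp2: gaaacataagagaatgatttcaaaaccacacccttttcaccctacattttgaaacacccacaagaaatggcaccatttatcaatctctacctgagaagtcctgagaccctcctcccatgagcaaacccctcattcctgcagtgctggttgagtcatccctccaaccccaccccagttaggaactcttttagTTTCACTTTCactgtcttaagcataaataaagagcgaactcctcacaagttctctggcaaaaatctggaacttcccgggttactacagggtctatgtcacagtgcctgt
Gbp3: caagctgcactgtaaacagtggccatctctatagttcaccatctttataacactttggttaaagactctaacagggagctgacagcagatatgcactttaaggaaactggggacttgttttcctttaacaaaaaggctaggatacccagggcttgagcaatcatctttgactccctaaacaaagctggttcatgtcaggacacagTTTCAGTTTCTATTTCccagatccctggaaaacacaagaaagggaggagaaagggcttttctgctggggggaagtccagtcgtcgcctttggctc
Irf1: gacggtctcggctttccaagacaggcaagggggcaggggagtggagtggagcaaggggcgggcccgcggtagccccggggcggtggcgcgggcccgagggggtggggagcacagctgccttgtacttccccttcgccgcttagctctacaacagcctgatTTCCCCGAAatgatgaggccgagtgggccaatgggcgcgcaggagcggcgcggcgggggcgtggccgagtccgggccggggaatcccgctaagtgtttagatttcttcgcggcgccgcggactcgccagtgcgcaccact
Serpina3g: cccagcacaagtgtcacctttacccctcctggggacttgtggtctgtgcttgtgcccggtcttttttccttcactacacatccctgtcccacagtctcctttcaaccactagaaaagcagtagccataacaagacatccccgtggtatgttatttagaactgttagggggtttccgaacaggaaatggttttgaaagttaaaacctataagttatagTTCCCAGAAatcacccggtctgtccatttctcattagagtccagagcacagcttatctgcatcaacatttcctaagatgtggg

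Genes of cytokine signalling fell in part. Stat4, whose product carries interleukin 12 and type I interferon signals, was at 414, 431 and 414 CPM in WT and 79.4, 71 and 85.1 CPM in KO (log2 fold change -2.42, SE 0.13, edgeR adjusted p = 1.5e-07). No other gene called lower had so small an adjusted p. The KO libraries lay together at about the same level, KO12 included, and the call held in all 12 fits that left out 1 library. Ifngr2, the signalling chain of the interferon gamma receptor, was at 307, 286 and 285 CPM in WT and 202, 194 and 244 CPM in KO (log2 fold change -0.46, adjusted p = 0.035), with KO12 nearest to WT. These were the 2 called of 34 tested cytokine receptor, JAK, STAT and SOCS genes (0 higher, list median -0.23), against 0.556% of all autosomal genes called lower. Without KO12 the count was 8 lower and 1 higher, against 2.05% and 3.89% of all autosomal genes in that fit. The Ifngr2 call ended without WT1 or WT3, WT7, WT8 or WT9, or KO10 or KO11 (adjusted p = 0.056 to 0.17), which left 1 gene of the list, Stat4, in each of those fits. Il4ra, the receptor chain for the IL-4 in the medium, stood at 779, 733 and 876 CPM in WT and 508, 379.8 and 861 CPM in KO (log2 fold change -0.45, adjusted p = 0.54), where KO12 lay among the WT libraries and the other 2 KO libraries below them.

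A block of serpin genes, which encode protease inhibitors, was lower in every KO library. Of 15 tested serpin genes, 5 fell (Serpina3f, Serpina3g, Serpina3h, Serpina3i and Serpina3n) and 1, Serpine2, rose, against 0.556% and 1.61% of all autosomal genes. The count of 5 held in each fit that left out 1 library. Serpina3g, an inhibitor of cysteine proteases expressed in activated lymphocytes, was at 934, 976 and 919 CPM in WT and 189, 199 and 230.1 CPM in KO (log2 fold change -2.19, SE 0.13, edgeR adjusted p = 5e-07). Serpina3f was at 48.3, 49 and 48.6 CPM in WT and 14.6, 15.2 and 16.8 CPM in KO (log2 fold change -1.65, adjusted p = 0.004). The other 3 were near 0 in KO. Serpina3i was at 2.96, 3.11 and 2.97 CPM in WT and 0.123, 0.211 and 0.130 CPM in KO. Serpina3h, annotated as a pseudogene, had 126 estimated counts in the 3 WT libraries and 1 in the KO libraries (ratio 128, exact 95% interval 22.6 to 5108). Serpina3n had 136 and 3 (ratio 46.2, interval 15.5 to 227). These intervals cover counting error only. The 5 genes are neighbours on chromosome 12 (104214544 to 104414329), where they were all 5 of the genes tested, and as close paralogs they may exchange reads. Serpine2, which encodes a thrombin inhibitor, was at 1.31, 1.57 and 1.07 CPM in WT and 6.04, 8.34 and 4.33 CPM in KO (log2 fold change 2.24, adjusted p = 0.00083), and the number of serpin genes higher was 2 without KO5 or KO6 and 3 without KO12.

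**Figure D2:**
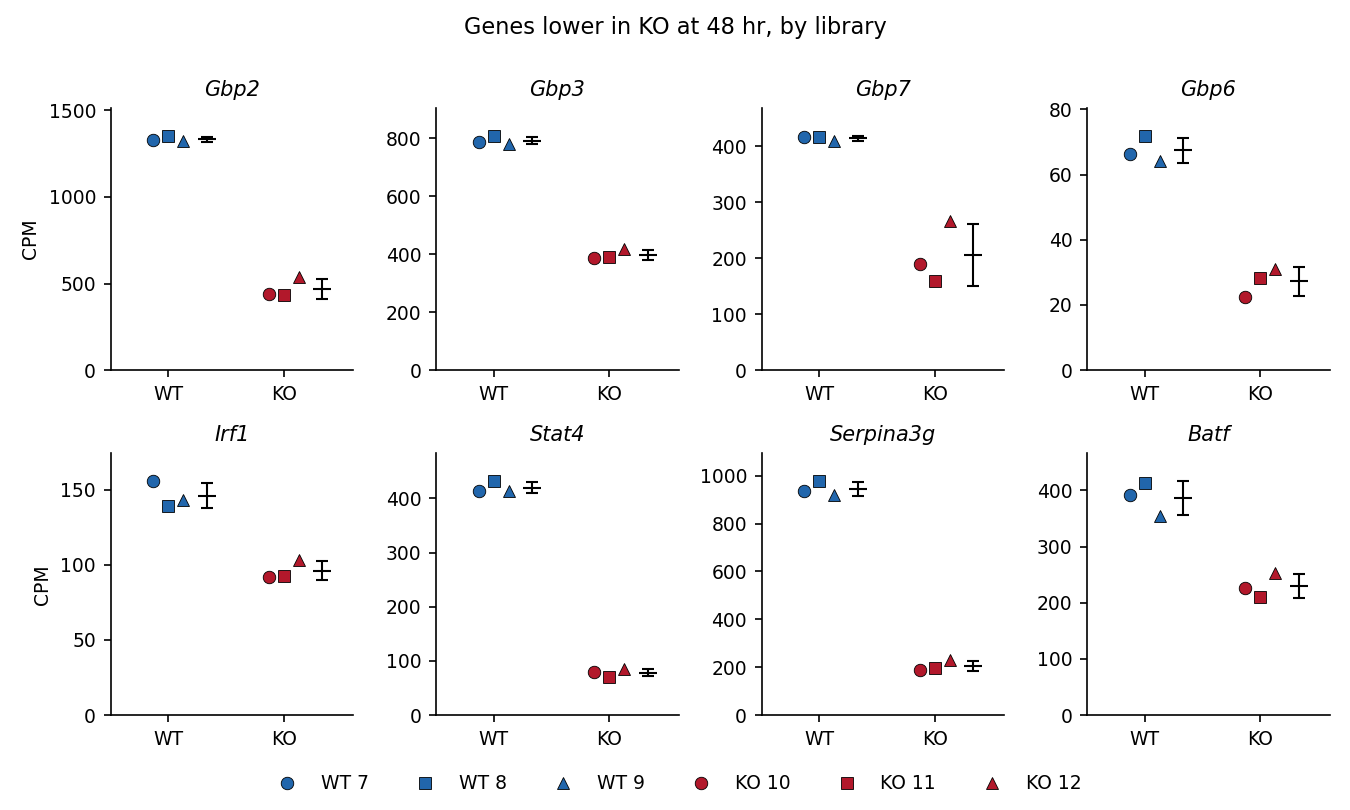
CPM of 8 genes called lower in KO, in each of the 3 WT (blue) and 3 KO (red) libraries at 48 hr, with the mean and SD as a bar beside the points and a separate axis from 0 for each gene. KO12 (triangle) is the highest KO point in all 8 panels, and in each panel every KO point is below every WT point.

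Of the class switch machinery Batf fell. Batf, an AP-1 factor gene needed for switching, was at 393, 413 and 354 CPM in WT and 227, 210.2 and 253 CPM in KO (log2 fold change -0.75, SE 0.12, edgeR adjusted p = 0.0066). It was the 1 called of 29 class switch genes tested and of 16 AP-1 family genes tested, against 0.556% of all autosomal genes called lower. Ighg1, the IgG1 constant region, was at 493, 468 and 522 CPM in WT and 197, 149 and 319.8 CPM in KO (log2 fold change -1.15, adjusted p = 0.033), with KO12 between the other KO libraries and WT. Its call ended without WT1 or WT3 or any one of the 48 hr libraries other than KO12 (adjusted p = 0.051 to 0.16). Napsa, which encodes an aspartic protease, and Ffar2, a receptor for short-chain fatty acids, were also lower. Napsa was at 548, 538 and 530.0 CPM in WT and 322, 307 and 387 CPM in KO (log2 fold change -0.67, adjusted p = 0.018). Ffar2 was at 8.88, 8.10 and 8.83 CPM in WT and 3.18, 2.08 and 2.41 CPM in KO (log2 fold change -1.75, adjusted p = 0.00058). Ahcy, the enzyme that clears S-adenosylhomocysteine, fell from 204, 191 and 190.3 CPM in WT to 68.7, 68.4 and 73.3 CPM in KO (log2 fold change -1.48, adjusted p = 0.001). That the groups do not overlap was a condition for naming Napsa, Ffar2 and Ahcy. Napsa lost its call in 4 of the 12 fits, without WT7 or WT8 or KO10 or KO11 (adjusted p = 0.051 to 0.093).

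Some genes of the plasma cell program rose in KO. Prdm1, the gene of BLIMP-1, a master regulator of plasma cells, was at 11, 11 and 14.9 CPM in WT and 33.5, 31 and 59.5 CPM in KO (log2 fold change 1.74, SE 0.27, edgeR adjusted p = 0.0048), and KO12 held the highest level of the 3. Among the fits that left out 1 library its call ended without WT7 alone (1.63, adjusted p = 0.0513). Of 25 B cell and plasma cell transcription factors tested, 3 rose and 0 fell (Prdm1, Zbtb20 and Mef2b), with a list median of 0.25. Of all autosomal genes, 1.61% were called higher. Zbtb20, a zinc-finger gene of long-lived plasma cells, was at 33.9, 32.6 and 32.2 CPM in WT and 60.6, 68.6 and 49.9 CPM in KO (log2 fold change 0.86, adjusted p = 0.0036). The plasma cell factor Xbp1 stood at 545, 539.8 and 538 CPM in WT and 583, 623 and 725 CPM in KO (log2 fold change 0.25, adjusted p = 0.36). The coactivator Pou2af1 was at 608, 578 and 631 CPM in WT and 806, 786 and 804 CPM in KO (log2 fold change 0.40, adjusted p = 0.085). Each had every KO library above WT, and neither passed edgeR's test in the fit of all 12 libraries. Pou2af1 was called by edgeR in the fit of the 6 libraries at 48 hr (adjusted p = 0.013) and without KO5 (0.0463), and by DESeq2 (0.038).

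Of 23 plasma cell surface and secretory genes, 6 rose and 0 fell, against 1.61% of all autosomal genes called higher, and the log2 fold change of all 23 was above 0 (list median 0.51). Sdc1, the plasma cell surface proteoglycan syndecan-1, was at 5.30, 5.81 and 5.30 CPM in WT and 11.5, 13.6 and 9.78 CPM in KO (log2 fold change 1.09, adjusted p = 0.029). The endoplasmic reticulum chaperone gene Hsp90b1 was the most abundant of the 6, at 2389, 2418 and 2514 CPM in WT and 3608, 3888 and 3765 CPM in KO (log2 fold change 0.62, adjusted p = 0.004). Eaf2, a partner of the elongation factor ELL2 in secretory cells, was at 20.1, 21.3 and 19.6 CPM in WT and 50.4, 66.3 and 36.9 CPM in KO (log2 fold change 1.33, adjusted p = 0.003). The other 3 were Ell2, Creld2 and Derl3. Without KO12 the count was again 6, but Ell2 lost its call (edgeR adjusted p = 0.086) and Cd93 gained one (0.0032). The count was 1 without WT7 and 2 without WT8 or WT9 or KO10 or KO11, and ran from 1 to 8 over the 12 fits that left out 1 library. Ell2 lost its call in 10 of those 12 fits, and Eaf2 was the 1 member called in all 12. Of 25 unfolded-protein-response genes, 2 rose, Hsp90b1 and Creld2 (list median 0.25), a count that was 0 without WT7 and 1 without WT8 or WT9 or KO10 or KO11. The chaperone gene Hspa5 was at 3467, 3490 and 3399 CPM in WT and 4016, 4251 and 4070 CPM in KO (log2 fold change 0.25, adjusted p = 0.51). The 4 plasma cell markers (Sdc1, Tnfrsf17, Jchain and Prdm1) summed to 32.6 to 36.5 CPM in WT and 60.7 to 96.5 CPM in KO, and 2 of the 4 were called. In these bulk samples a larger number of cells of a type and more RNA per cell cannot be told apart.

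Some genes of marginal zone and of early B cells rose as well. Marginal zone B cells are spleen residents that respond early to blood-borne antigens. Of 17 marginal zone genes tested, 4 rose and 0 fell (Cd36, Cd9, Cd1d1 and Cd24a, median 0.36), and of 14 early B progenitor genes, 4 rose and 0 fell (Cd24a, Kit, Myb and Sox4, median 0.50), against 1.61% of all autosomal genes called higher. Cd24a, a surface glycoprotein gene in both lists, was at 93.4, 104 and 103 CPM in WT and 279, 347 and 321 CPM in KO (log2 fold change 1.66, SE 0.16, edgeR adjusted p = 6.4e-05), with all 3 KO libraries about equally high. The lipid scavenger receptor gene Cd36 was at 45.9, 52.6 and 54.3 CPM in WT and 247, 385 and 120.2 CPM in KO (log2 fold change 2.30, adjusted p = 0.0061), where KO12 was lowest. Myb, a progenitor transcription factor, was at 4.69, 3.62 and 6.11 CPM in WT and 11.8, 15.6 and 8.01 CPM in KO (log2 fold change 1.29, adjusted p = 0.023). Kit, the stem cell factor receptor, was at 0.695, 0.324 and 0.588 CPM in WT and 5.52, 8.28 and 0.959 CPM in KO (log2 fold change 3.19, adjusted p = 0.038), so that KO12 lay close to WT. Cd9, a tetraspanin gene, was at 21.8, 24.5 and 21.7 CPM in WT and 44.2, 50.8 and 53.8 CPM in KO (log2 fold change 1.13, adjusted p = 0.005). Cd1d1, a lipid-presenting molecule, was at 5.92, 5.62 and 4.68 CPM in WT and 8.15, 7.49 and 8.71 CPM in KO (log2 fold change 0.59, adjusted p = 0.024), the smallest difference of the list's 4. The marginal zone count was 1 without WT7 and 2 without WT9. The progenitor count was 1 without WT8 or KO10 or KO11, and 2 without WT1, WT2 or WT3 or WT7 or WT9, and 6 without KO12. The Cd36 call ended without WT7 (adjusted p = 0.061), Cd9 without WT7 or WT9 (0.059 and 0.0546), and Cd1d1 without WT7, WT8 or WT9 or KO10 or KO11 (0.089 to 0.16). Cd24a held in all 12 fits, as did the 2 genes that follow. Of 13 germinal center genes, 2 rose (Mef2b and Basp1, median 0.48) and 4 did without KO12. Mef2b, a partner in the Bcl6 circuit, was at 45, 38.7 and 40.9 CPM in WT and 89.8, 90.5 and 62.3 CPM in KO (log2 fold change 0.96, adjusted p = 0.0039). Basp1, which encodes a membrane-bound signalling protein, was at 5.72, 4.59 and 4.30 CPM in WT and 28, 30.6 and 9.41 CPM in KO (log2 fold change 2.22, adjusted p = 0.005).

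Among cytokines and chemokines of B cells, 2 of 22 rose, Il10 and Ccl4 (list median -0.21), and 4 without KO12. For this list and the next, 1.61% of all autosomal genes were called higher, and 3.89% without KO12. Il10, an anti-inflammatory cytokine gene that activated B cells can secrete, was at 11.2, 9.13 and 7.98 CPM in WT and 36.6, 37.8 and 49.8 CPM in KO (log2 fold change 2.13, SE 0.34, edgeR adjusted p = 0.005). All KO libraries were well above WT, KO12 the highest, and the call ended without WT9 (1.97, adjusted p = 0.0529). Ccl4, a chemokine gene, was at 2.21, 3.24 and 2.51 CPM in WT and 5.69, 9.50 and 6.51 CPM in KO (log2 fold change 1.45, adjusted p = 0.032). Its call ended in 7 of the 12 fits, those without WT1 or WT3, WT7, WT8 or WT9 or KO10 or KO11 (adjusted p = 0.051 to 0.18), so that the list's count there was 1, or 0 without WT9. Of 24 costimulatory and activation surface genes, 1 rose, Cd80, a ligand of CD28, and without KO12 the counts were 3 higher and 1 lower (Cd86, the other CD28 ligand). Cd80 was at 1.39, 1.08 and 1.64 CPM in WT and 4.78, 6.70 and 4.28 CPM in KO (log2 fold change 1.94, adjusted p = 0.026). Its call ended without any one of the 48 hr libraries other than KO12 (adjusted p = 0.068 to 0.14). The activation marker Cd83 was at 2516, 2705 and 2428 CPM in WT and 2468, 2529 and 2442 CPM in KO (95% interval of the log2 fold change -0.34 to 0.26, adjusted p = 0.94). Il5ra, the IL-5 receptor chain that B-1 cells and plasma cell precursors carry, was in none of the lists and was chosen after its values were seen. It was at 23.1, 22.6 and 27.9 CPM in WT and 86.1, 93.7 and 63.7 CPM in KO (log2 fold change 1.73, adjusted p = 0.0015). Il5ra lies on chromosome 6 within 20 Mb of Chd4, a region described below. It was higher to a like degree at 0 hr (log2 fold change 1.74, edgeR adjusted p = 0.0017).

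The tumour suppressor gene Trp53 rose in every KO library. It was at 55.3, 61.1 and 61.6 CPM in WT and 185, 176 and 221 CPM in KO (log2 fold change 1.71, SE 0.14, edgeR adjusted p = 1.8e-05), and the call held in all 12 fits that left out 1 library. Of 28 p53 target genes tested, 3 rose and 0 fell (median 0.24), against 1.61% of all autosomal genes called higher. Cdkn1a, an inhibitor of cyclin-dependent kinases, was at 3.91, 3.73 and 2.79 CPM in WT and 12.8, 6.70 and 10.6 CPM in KO (log2 fold change 1.53, adjusted p = 0.014). The BH3-only gene Pmaip1 was at 52.5, 46.6 and 55.3 CPM in WT and 82.5, 82.3 and 76.7 CPM in KO (log2 fold change 0.64, adjusted p = 0.023). Phlda3, an AKT inhibitor, was at 1.62, 1.73 and 1.43 CPM in WT and 8.23, 7.52 and 7.26 CPM in KO (log2 fold change 2.26, adjusted p = 0.0455). The count was 0 without WT7, WT8 or WT9 or KO10, 1 without KO11 and 5 without KO6. Ccng1, a target at a higher level, was at 284, 288 and 291 CPM in WT and 378, 444 and 418 CPM in KO (log2 fold change 0.52, adjusted p = 0.14). Mdm2, which encodes the ligase that degrades p53, was at 121, 107 and 132 CPM in WT and 154, 147 and 149 CPM in KO (log2 fold change 0.32, adjusted p = 0.13). In both the groups did not overlap and edgeR's test did not pass in the fit of all 12 libraries. In the fit of the 6 libraries at 48 hr, Ccng1 was called (log2 fold change 0.53, adjusted p = 0.0078). Among G1 cyclins, kinases and inhibitors, Cdkn1a rose and Ccnd3, a D-type cyclin gene, fell, 2 of 22, against 2.16% of all autosomal genes called. Ccnd3 was at 424, 408 and 446 CPM in WT and 288, 255 and 339.7 CPM in KO (log2 fold change -0.53, adjusted p = 0.04995). Its call ended in 9 of the 12 fits, all but those without KO5 or KO6 or KO12 (adjusted p = 0.051 to 0.19). Of the BCL2 family, Pmaip1 rose and the survival gene Bcl2a1d fell, 2 of 18, against the same 2.16%. Bcl2a1d was at 585, 661 and 513 CPM in WT and 349, 394 and 412 CPM in KO (log2 fold change -0.61, adjusted p = 0.016). Without WT7 or WT8 or KO10, neither was called, and without WT9 or KO11 Bcl2a1d alone was.

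**Figure D3:**
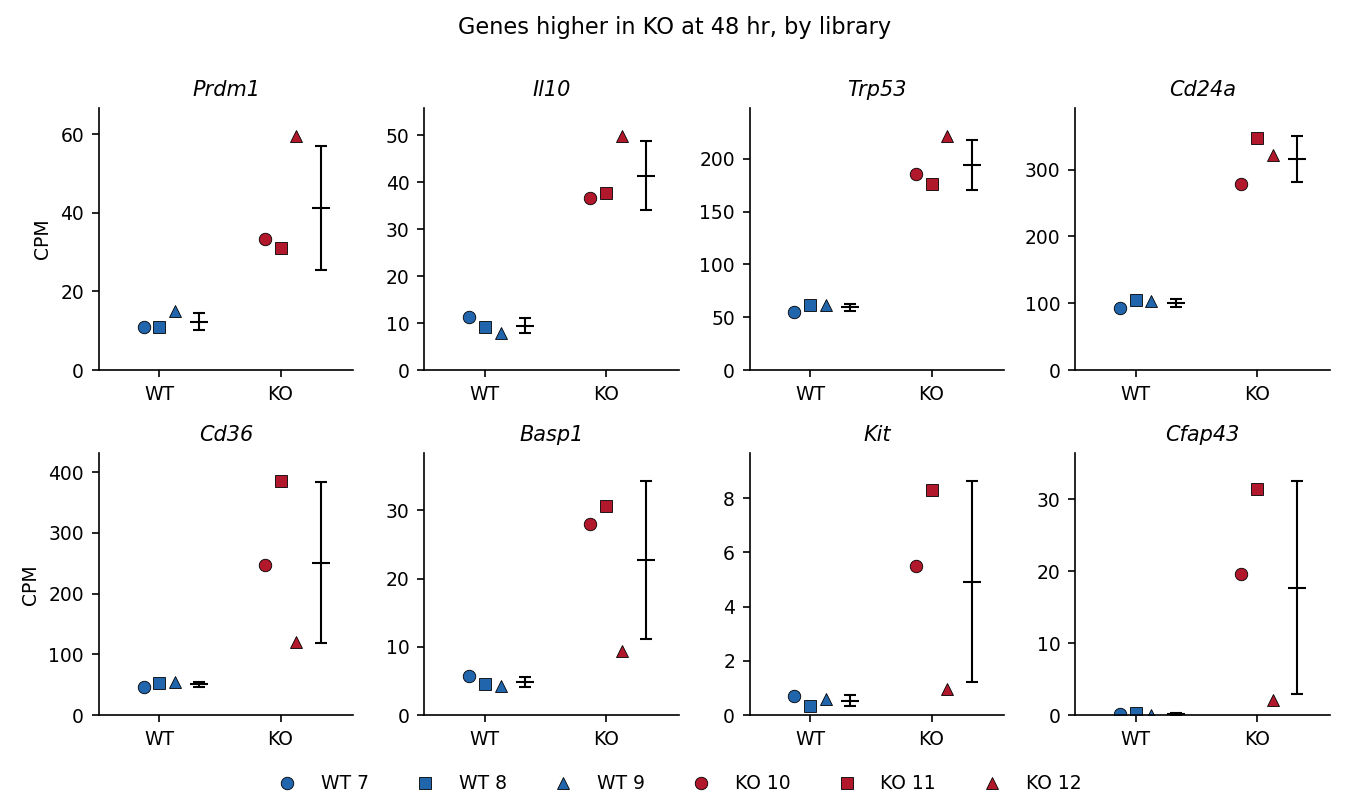
CPM of 8 genes called higher in KO, in each of the 3 WT (blue) and 3 KO (red) libraries at 48 hr, with the mean and SD as a bar beside the points and a separate axis from 0 for each gene. In the top row (Prdm1, Il10, Trp53 and Cd24a) KO12 (triangle) is the highest KO point, except for Cd24a, where it lies between the other 2, and in the bottom row (Cd36, Basp1, Kit and Cfap43) it lies between them and WT.

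A further 5 genes rose in all 3 KO libraries and were called in every fit that left out 1 library. Supt16, a subunit of the histone chaperone FACT, was at 184, 219 and 206 CPM in WT and 466, 753 and 454 CPM in KO (log2 fold change 1.46, adjusted p = 0.0015). Ncapd2, a condensin subunit gene that lies near Chd4, was at 214, 197 and 242 CPM in WT and 515, 457 and 456 CPM in KO (log2 fold change 1.13, adjusted p = 0.00071). Rbm45, an RNA-binding protein gene, was at 5.18, 5.97 and 5.53 CPM in WT and 69.4, 69.4 and 58.9 CPM in KO (log2 fold change 3.57, adjusted p = 2.9e-08), the smallest adjusted p of the autosomal genes. Tmem87a, which encodes a Golgi membrane protein, was at 10.6, 12.3 and 15 CPM in WT and 84.8, 79 and 86.7 CPM in KO (log2 fold change 2.72, adjusted p = 3.9e-07). Hnrnpll, a splicing regulator of activated lymphocytes, was at 0.798, 1.57 and 1.23 CPM in WT and 6.43, 6.38 and 8.25 CPM in KO (log2 fold change 2.55, adjusted p = 0.001). That the groups do not overlap was a condition for naming these 5.

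Many genes nearly silent in WT were present in KO. Of the 257 higher genes, 79 averaged below 1 CPM in WT and 1 CPM or more in KO, and 7 had no count in any WT library. Ccnb1ip1, a meiotic crossover gene, had 1 estimated count in the 3 WT libraries together and 1212 in the KO libraries, at 6.63, 14.9 and 9.78 CPM in KO (ratio 1190, exact 95% interval 213 to 47045, edgeR adjusted p = 4.7e-05). Cfap43, of motile cilia, was at 0.180, 0.270 and 0 CPM in WT and 19.6, 31.4 and 2.13 CPM in KO (log2 fold change 6.87, adjusted p = 0.0043). Vdr, the vitamin D receptor, was at 0.0515, 1.03 and 0.947 CPM in WT and 30.3, 31 and 11.1 CPM in KO (log2 fold change 5.16, adjusted p = 0.0026). These 3 held in all 12 fits that left out 1 library, but their KO levels differed: KO12 was in the middle in Ccnb1ip1 and the lowest in Cfap43 and Vdr. Chd5 had 1 count in WT and 93 in KO, none of them in KO12 (CPM 0.887, 1.50 and 0, ratio 91.3, interval 16 to 3645, adjusted p = 0.0458). Its call held only without KO12, ending in the other 11 fits (adjusted p = 0.0504 to 0.19). Tmem59l and Ccl19, chosen after their values were seen, had 345 and 101 counts in KO, 0 in KO12 and 0 in WT, which makes them at least 113-fold and 33.1-fold higher if 3 counts are set as the floor of the WT group. Tmem59l lost its call without any one library other than KO5 or KO6 or KO12 (adjusted p = 0.062 to 0.14), and Ccl19 without any one other than KO6 or KO12 (0.0516 to 0.16).

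The genes called higher split by how far KO12 moved. On the scale of log2(CPM + 0.5), from the WT mean to the mean of KO10 and KO11, KO12 stood below 50% of the way in 88 genes, at 50% to 80% in 65 and at 80% or more in 104. The split uses the values behind the calls and is a description. Hspb1, a small heat-shock protein gene, was among the 88, at 0.180, 0.0810 and 0.0256 CPM in WT and 5.94, 8.71 and 0.493 CPM in KO (log2 fold change 5.68, adjusted p = 0.023). Lsr, a lipoprotein receptor of epithelia, was too, at 1.98, 0.972 and 1.94 CPM in WT and 15, 18.1 and 2.05 CPM in KO (log2 fold change 2.84, adjusted p = 0.032). Il10 and Rbm45 were among the 104. Among the 89 lower genes the same 3 counts were 16, 26 and 47. Genes lower in KO thus had KO12 nearer to the other 2 KO libraries, with a median of 82.9% of the way, against 69.9% for those higher. The difference between the directions was not tested. Hspb1 and Lsr lost their calls without any one of the 48 hr libraries other than KO12 (adjusted p = 0.066 to 0.16), and Lsr also without WT1, WT2 or WT3 or KO4 (0.051 to 0.054).

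Lists of genes of other lineages had 1 or 2 called members each, against 1.61% of all autosomal genes called higher. One gene rose of 18 germline and meiosis genes (Ccnb1ip1, list median 0.34), of 18 neuronal genes (Map2, 0.50), of 17 muscle genes (Tnni1, 0.64) and of 10 NK cell genes (Prf1, the pore-forming protein of cytotoxic granules, 0.64), and 2 rose of 23 cilium genes (Cfap43 and Ccdc40, 0.21). None fell. Without KO12 the counts were 2, 3, 3, 1 and 2, against 3.89% of all autosomal genes called higher in that fit. Apart from Ccnb1ip1 and Cfap43 these calls ended without WT7 or WT8 or KO10 or KO11 (adjusted p = 0.072 to 0.16), those of Prf1, Map2 and Ccdc40 also without WT9, and that of Map2 also without WT1, WT2 or WT3 (0.056 to 0.064).

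In 17 of the 49 lists 0 members were called by edgeR. They included antigen presentation by MHC class II (0 of 16, with 3 at a p below 0.05 before adjustment and 0 by DESeq2 or limma-voom) and class I (0 of 19, with 6, 2 lower by DESeq2 and 0 by limma-voom). Also without a call were NF-kB subunits and feedback genes (0 of 21, with 1, 0 and 0), mitosis (0 of 25, with 2, 1 and 0), DNA replication (0 of 27, with 1, 0 and 0), and the MYC network (0 of 12, with 1, 0 and 0), numbers given in the same order. Metabolic lists among them were ribosome biogenesis (0 of 24, with 0, 0 and 0), oxidative phosphorylation (0 of 25, with 1, 0 and 0), glycolysis (0 of 20, with 3, 0 and 0) and sterol and fatty acid synthesis (0 of 26, with 0, 0 and 0). The chromatin lists of SWI/SNF and ISWI subunits (0 of 27, with 3, 0 and 0) and DNA methylation (0 of 15, with 0, 0 and 0) had none either. B cell identity markers had 0 of 17 called, with 5 at a p below 0.05 before adjustment, 3 by DESeq2 and 0 by limma-voom. Markers of T cells had 0 of 15 (3, 2 and 0), of myeloid cells 0 of 16 (2, 0 and 0), of erythroid cells and platelets 0 of 11 (1, 1 and 0) and of stromal and endothelial cells 0 of 10 (4, 1 and 0). The medians of the 17 lists ran from -0.42 to 0.51, and without KO12, 11 of the 17 had 1 to 3 members called. With 3 libraries a group, a count of 0 does not show that the genes did not differ.

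The remaining lists had 1 to 3 called members, against 1.61% of all autosomal genes called higher and 0.556% called lower. Without KO12 these shares were 3.89% and 2.05%. The lists were not tested, and 1 call is a result about the gene and not about its list. Of 20 genes of Toll-like receptors and LPS sensing, the adaptor gene Tirap rose (log2 fold change 0.82, adjusted p = 0.019) and Irak4, a kinase of the same pathway, and Unc93b1, which traffics nucleic acid receptors, fell (-1.53 and -0.50, adjusted p = 0.036 and 0.0498). Irak4 was at 17.7, 20.5 and 19.4 CPM in WT and 4.71, 11 and 4.28 CPM in KO. Of 32 B cell receptor signalling genes, the kinase gene Fyn and the exchange factor gene Rasgrp3 rose (0.67 and 0.78, adjusted p = 0.018 and 0.024). Of 22 homing and adhesion genes Cxcr4, a chemokine receptor, rose (log2 fold change 0.74, adjusted p = 0.0493), and without KO12 the counts were 2 higher and 4 lower. One gene rose in each of the lists of IL-4 and STAT6 targets (Sox4, of 17), Polycomb genes (Phc1, of 25), quiescence factors (Btg1, of 15), heat-shock genes (Hspb1, of 14), amino acid supply and ATF4 targets (Slc7a11, of 20) and CHD remodellers other than Chd4 (Chd5, of 9). Without KO12 the IL-4 and STAT6 list had 2 higher and 3 lower (Cd86, Cish and Socs1), and quiescence factors had 1 higher and 2 lower (Klf2 and Slfn2). The Polycomb and heat-shock lists then had 2 higher each. The Slc7a11 call ended without WT8 (adjusted p = 0.054). Each of the other calls in this group of lists ended without WT8 or WT9 or KO10, all but Sox4 also without WT7, and all but Irak4 also without KO11 (adjusted p up to 0.32). Irak4, Unc93b1, Cxcr4, Sox4, Phc1, Btg1 and Chd5 lost theirs also without WT1, WT2 or WT3, and Irak4 without KO12 (0.053).

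**Figure D4:**
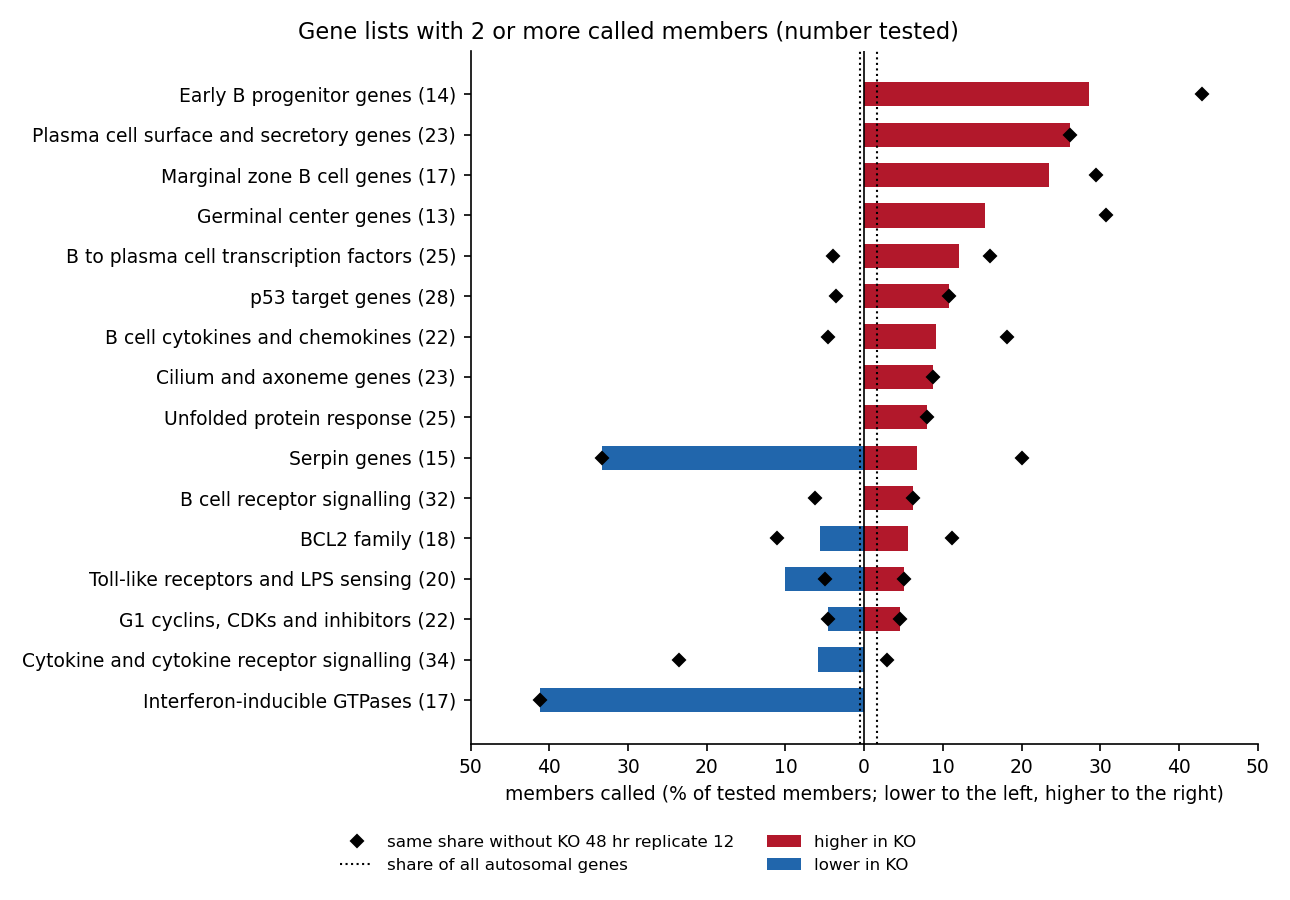
Share of tested members called higher (red, to the right) and lower (blue, to the left) in KO at 48 hr, in percent, for the 16 lists with 2 or more called members, with the number tested in brackets, dotted lines at the shares of all autosomal genes (1.61% and 0.556%) and diamonds for the shares without KO12. In the fit without KO12 the shares of all autosomal genes were 3.89% higher and 2.05% lower, so the dotted lines do not apply to the diamonds. Interferon-inducible GTPases and serpins have the longest bars to the left with the diamond on the end of the bar, and in cytokine signalling the diamond lies far beyond the bar.

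Chromosome 6, which carries Chd4, had the highest share of called genes of the autosomes, without a test of the difference. There 32 of 849 tested genes were called (3.77%), against 2.07% on the other autosomes and 0.993% on chromosome 4, the lowest. Chd4 itself is among the 32 and is left out of the counts by distance that follow. Within 20 Mb of Chd4, 17 of 314 genes were called (5.41%, 13 higher and 4 lower), and beyond 20 Mb on the same chromosome the share was 2.62%. Ncapd2, Mrpl51 and Cd9 were the 3 called of 46 within 1 Mb, all higher. Il5ra and Phc1, both given above, were also among the 17 within 20 Mb. Mrpl51, a mitochondrial ribosomal protein gene adjoining Ncapd2, was at 164, 183 and 144 CPM in WT and 301, 347 and 305 CPM in KO (log2 fold change 0.96, adjusted p = 0.0031). A passenger segment around a targeted locus and an effect of the deletion cannot be told apart in these groups, and the library kit does not record strand, so reads of adjoining genes on opposite strands cannot be separated. Over all autosomes, 122 of the 346 called genes lay within 500 kb of another called gene, in 48 groups, of which 30 were all higher, 5 all lower and 13 mixed. The same share for sets of genes not called was not computed, so these numbers do not show clustering. In 12 of the 48 every tested gene of the span was called, among them the 5 Serpina3 genes, the 5 genes from Gbp5 to Gbp2 on chromosome 3 (142493978 to 142638008), and Alb, Afp and Rassf6 on chromosome 5 (90460897 to 90640657), named after their values were seen. Each span starts and ends at a called gene, so this holds by construction for a pair with no tested gene between. Apart from the groups named here, all of the 12 were such pairs. Afp, which encodes the fetal serum protein alpha-fetoprotein, was at 2.01, 2.48 and 2.10 CPM in WT and 19.4, 20.6 and 4.93 CPM in KO (log2 fold change 2.77, adjusted p = 0.005). Alb, serum albumin, was at 0.103, 0 and 0.0768 CPM in WT and 1.63, 3.19 and 0.752 CPM in KO. The Alb call ended without WT7, WT8 or WT9 or KO10 or KO11 (adjusted p = 0.065 to 0.14).

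Libraries labelled with the same genotypes were compared at 0 hr, where Chd4 RNA was not lower in those labelled KO (mean 87.8 CPM, against 86.8 CPM in WT). There 183 autosomal genes were called (1.14%), 116 higher (0.725%) and 67 lower (0.418%). Of the 257 genes higher at 48 hr, 204 had a positive log2 fold change at 0 hr and 43 were called higher there, with a median of 0.53 at 0 hr. Of the 89 lower at 48 hr, 67 had a negative value at 0 hr and 14 were called lower there, with a median of -0.35. Trp53 was at 38.9, 37.8 and 42 CPM in WT and 84.2, 86 and 119.5 CPM in KO at 0 hr (log2 fold change 1.29, adjusted p = 0.0003). Ahcy was at 22.9, 30.6 and 20.6 and 5.45, 7.73 and 10.2 CPM (-1.66, adjusted p = 0.00054) and Gbp6 at 19.5, 26.6 and 22.2 and 5.89, 10.7 and 9.86 CPM (-1.37, adjusted p = 0.0042), so that these 3 differed between the libraries labelled KO and WT in unstimulated cells as well. Against 0.725% of all autosomal genes higher and 0.418% lower at 0 hr, several lists already had calls there. Of 17 interferon-inducible GTPases, 5 were lower and 1 higher (median -0.52), and of 33 other interferon-stimulated genes 5 and 0 (-0.32). Of 15 serpin genes, 4 were lower and 1 higher (-0.35). Of 17 marginal zone genes, 5 were higher and 0 lower (0.60). Of 23 plasma cell surface and secretory genes, 2 were higher and 0 lower, and of 13 germinal center genes 0 were called. Prdm1 and Il10 were not called at 0 hr. Il10 was there at 0.369, 0.0988 and 0.0351 CPM in WT and 0.304, 0.231 and 0.118 CPM in KO, far below its 48 hr levels. The 48 hr difference was unlike the 0 hr one by edgeR's interaction test in 21 autosomal genes (0.131%), with a positive interaction in 12 (0.075%) and a negative one in 9 (0.0562%), and 14 of the 21 were among the 346. Stat4, at 86.8, 111 and 82.1 CPM in WT and 58.1, 59.8 and 67.4 CPM in KO at 0 hr, had a smaller difference there (log2 fold change -0.59, 48 hr minus 0 hr -1.82, adjusted p = 0.0013). Gbp2, at 28.6, 32.8 and 24.7 and 22.1, 28.1 and 22.3 CPM, did too (-0.25, 48 hr minus 0 hr -1.26, adjusted p = 0.028). Gbp2b went in opposite directions, at 0.211, 1.03 and 0.597 CPM in WT and 3.78, 5.78 and 2.37 CPM in KO at 0 hr (2.71, adjusted p = 0.0048). At 48 hr it was at 78.3, 87.9 and 82.3 CPM in WT and 21.1, 14.2 and 21.8 CPM in KO. The interaction count ran from 3 to 79 when 1 library was left out, with 79 without KO12.

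**Figure D5:**
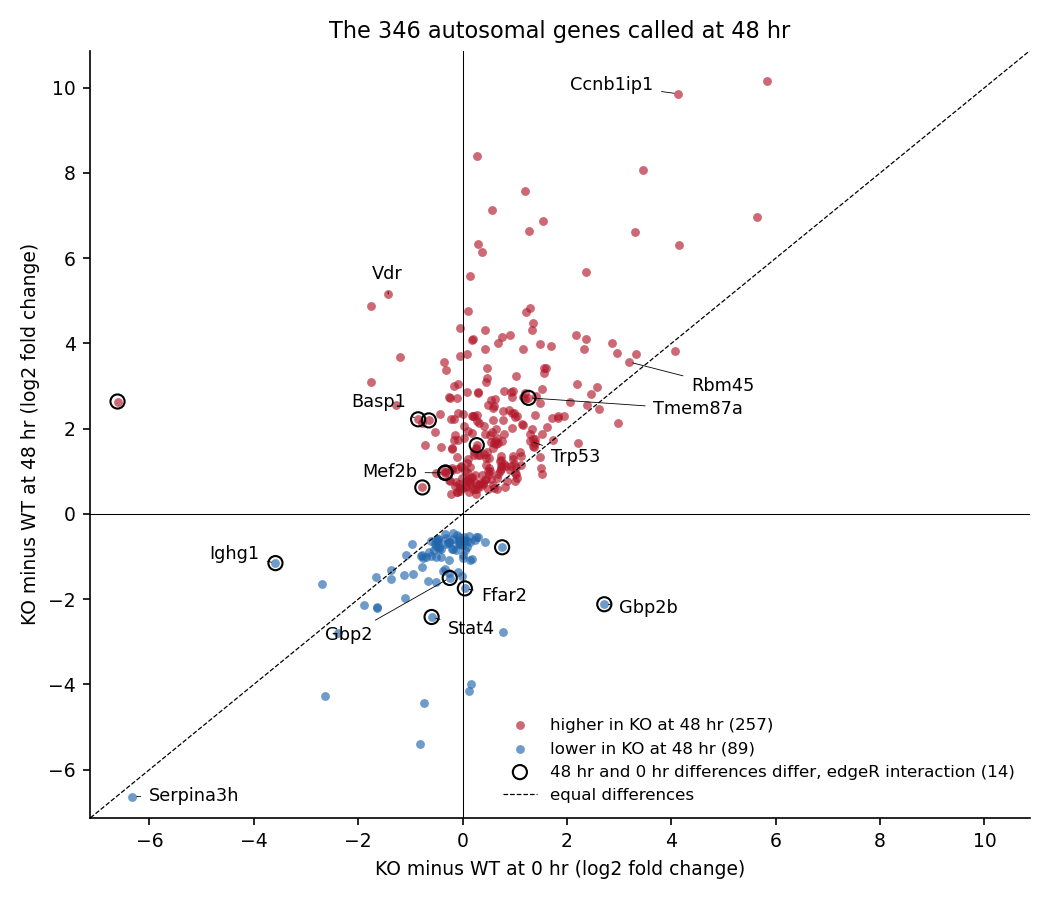
Log2 fold change of libraries labelled KO against WT at 0 hr (x axis) and at 48 hr (y axis) for the 346 autosomal genes called at 48 hr, with 1 point a gene, a dashed line at equal differences and rings around the 14 genes past the interaction test. Gbp2b lies at 2.71 and -2.12, while Rbm45 (3.18 and 3.57) and Trp53 (1.29 and 1.71) lie near the dashed line.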

How the data were processed

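The deposited file held estimated counts per transcript for 12 libraries, which the authors made with Salmon 0.8.2 after bcl2fastq 2.20.0.422 and Trimmomatic 0.36, on mm10, per the submitters' processing notes. The notes also name DESeq2 1.14.1. They do not say what each tool did. Per the labels' protocols, RNA was amplified with a SMART-Seq v4 kit, which does not record strand, and RNA integrity was checked before amplification.

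The estimated counts, deposited as whole numbers for 63759 transcripts, were summed over the trimmed gene symbol (32699 symbols). Genes passing filterByExpr (19125) were fitted with edgeR 4.0.16 in R 4.3.3 (TMM scaling, robust quasi-likelihood, 4 groups of 3 libraries, no covariate), with contrasts for 48 hr, 0 hr and their difference, and Benjamini-Hochberg adjustment over all 19125. Positions came from GENCODE M21 and placed 16010 tested genes on autosomes, 570 on X and 13 on Y. The other 2532 had no position and were left out of the description, as were the sex chromosomes. Promoters came from RefSeq.

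The genes described were Chd4, called members of 49 gene lists, the 20 called genes with the largest log2 fold change and the 12 with the largest CPM difference in each direction (no overlap of the groups, mean of at least 5 CPM in the higher group, no Gm or Rik names), and up to 3 abundant uncalled members per list. Not all are printed. Other uncalled genes with values were picked after their values were seen. The members and lists were chosen with earlier results of these data known. Lists got counts and medians and no test. Exact 95% intervals and the floor of 3 counts cover counting error only. Alternatives were DESeq2 1.42.0, limma-voom 3.58.1, other scalings and filters, a fit of the 6 libraries at 48 hr, and each library left out in turn. Figures were drawn with matplotlib 3.10.9.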

Additional observations from a re-analysis of the deposited data

Results flagged for a closer look

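In 8 of the genes described, the difference between KO and WT at 48 hr was not the same as in unstimulated cells, by edgeR's interaction test with adjustment over all genes tested. Chd4 RNA was not lower in the 0 hr libraries labelled KO. Values here are the 48 hr log2 fold change minus the 0 hr one. Among genes lower at 48 hr, the value was -1.82 (SE 0.17, adjusted p = 0.0013) for Stat4, -1.26 (SE 0.19, adjusted p = 0.028) for Gbp2, -1.79 (SE 0.28, adjusted p = 0.029) for Ffar2 and -4.83 (SE 0.53, adjusted p = 0.0027) for Gbp2b, whose 0 hr difference had the opposite sign. For Ighg1 it was 2.43 (SE 0.41, adjusted p = 0.044), a positive value for a gene lower at 48 hr, with the larger difference at 0 hr (0 hr log2 fold change -3.59, with 8.56, 9.76 and 7.38 CPM in WT and 0.380, 0.632 and 1.07 CPM in KO). Among genes higher at 48 hr, it was 1.46 (SE 0.21, adjusted p = 0.022) for Tmem87a, 1.30 (SE 0.21, adjusted p = 0.029) for Mef2b and 3.07 (SE 0.49, adjusted p = 0.029) for Basp1. Basp1 stood at 22.8, 22 and 19.8 CPM in WT and 9.57, 10.1 and 16.2 CPM in KO at 0 hr, and Mef2b at 20.3, 18.4 and 21.8 and 14.5, 16.7 and 16.7 CPM. In each of the 8, the 48 hr libraries of the 2 genotypes did not overlap, as in 21.6% of all autosomal genes. For Tmem87a, Ffar2 and Ighg1 this was a condition for being named. The others of the 8 were called members of lists, where it was not.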

How the results depend on the processing

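None of the 99 called genes tracked for the text changed direction in the alternatives that tested it, and 41 of the 99 kept their call in every fit that left out 1 library. All 99 were called by DESeq2, 68 by limma-voom, 93 with relative log expression scaling, 84 with no filter on low counts and 85 from the 6 libraries at 48 hr alone, where 13 lost theirs and the other 1 was not tested. With a filter of at least 1 CPM in 3 libraries, 89 kept their call, 4 lost it and the others were not tested. The number of autosomal genes called at 48 hr was 346 (257 higher, 89 lower). It was 172 with limma-voom (97 higher), 964 with DESeq2 (527 higher, 437 lower) and 1234 without KO 0 hr replicate 6 and KO 48 hr replicate 12 (798 higher, 436 lower). The count of lower genes was 150 from the 6 libraries at 48 hr alone. Of the calls, 74.3% were higher, against 64.2% with relative log expression scaling, 65.9% with at least 1 CPM in 3 libraries, 63.7% in the 6 libraries, 56.4% with limma-voom and 54.7% with DESeq2. Leaving out 1 library gave 115 to 979 calls, 77 to 641 higher and 30 to 338 lower. At 0 hr, 183 genes were called, 575 with DESeq2, 597 without those 2 KO libraries and 64 to 374 with 1 library left out. The interaction called 21, 199 with DESeq2, 121 without those 2 KO libraries and 3 to 79 with 1 library left out. The Chd4 log2 fold change ran from -1.25 to -0.81 with 1 library left out and was -0.96, no longer called (adjusted p = 0.0504), with no filter on low counts. The causes of these shifts were not tested. Of the genes called higher, 7 had 0 counts and 8 had 1 to 3 counts in the 48 hr WT libraries, so their ratios rest on few counts. No paired analysis was possible because the replicate numbers run from 1 to 12 and no number is shared between groups.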
